A study of Mus musculus with 10 samples.

Results

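The 32 genes described here are astrocyte genes, listed by their known use in this cell type, with the markers Gfap, Aqp4 and S100b among them. All 32 had a probe set of their own on the array, out of 19938 genes measured, and a gene with several probe sets was read from the one with the highest mean. The samples were whole hippocampi of 5 Dp3Yah mice, which carry a segmental duplication of the Hspa13 to App region of mouse chromosome 16, and of 5 control littermates without it, 1 array per mouse. All 10 mice were males of 16 weeks. The labels give C57BL/6N as their background, whereas the methods of the study describe backcrossing to C57BL/6J. No member lies on chromosome 16 (0 of 32), and the members are spread over 15 chromosomes.

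Astrocytes take up glutamate and potassium released by active neurons, convert glutamate to glutamine, wrap blood vessels with endfeet rich in water channels, and supply lipoproteins and metabolites to neurons. Gap junctions join them into networks. When tissue is injured they become reactive, and GFAP, their intermediate filament, is the usual sign of this. S100B, a calcium-binding protein that astrocytes also secrete, is encoded on human chromosome 21, and its mouse gene lies on chromosome 10 (chr10:76253836-76261319, GRCm38.p6), outside the Dp3Yah duplication. These are whole tissue samples, in which fewer astrocytes and less RNA per astrocyte cannot be told apart.

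The arrays had median log2 values between 5.64 and 5.71, and no pair of arrays was identical. Over all genes 3 passed limma's test at an adjusted p under 0.05 (0.015% of 19938), Hspa13, Ncam2 and Mrpl39, all of them in the duplicated region and all higher in Dp3Yah. The mean of the 13 measured genes listed for that region was 7.90 to 7.95 in the Dp3Yah mice and 7.54 to 7.62 in the controls, so that the groups did not overlap there. On the first principal component of all genes, Dp3Yah mouse 2 stood apart at -17.2, and the other 9 mice lay between -7.74 and 10.4. Without it 0 of 32 members passed the test, and the members' median difference was 0.05. The members, with the markers Gfap, Aqp4 and S100b, all exceeded the median level of all genes (log2 6.38).

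None of the 32 astrocyte genes passed the limma test in Dp3Yah hippocampus (0 of 32, background 0.015%), and their lowest adjusted p was 0.922. The log2 difference (Dp3Yah minus control) was positive for 23 members, 71.9% against 46.8% of all genes and 53.1% of the genes above the median level. It was negative for 9 members, against 53.2% of all genes. The median difference of the members was 0.03, against -0.005 over all genes and 0.005 over the genes above the median level. Without control mouse 3 the members' median was 0.01, the smallest of the fits that left out 1 mouse, with 23 members still positive. At an unadjusted limma p under 0.05 only Hepacam passed, with a higher value in Dp3Yah, which is 1 of 32 against 5.08% of all genes (2.49% higher and 2.59% lower). With 1 mouse left out this count was 0 to 4, with 0 without Dp3Yah mouse 1, Dp3Yah mouse 5 or control mouse 3, 2 without Dp3Yah mouse 4 or control mouse 1, and 4 without control mouse 2. No member had groups that did not overlap (0 of 32, against 0.913% of all genes, 0.522% with Dp3Yah higher and 0.391% with it lower). A rank test like that of the study averages the ranks of a gene's fold changes over pairs of mice and converts them to a value f between 0 and 1. It put Aldh1l1 (f = 0.980) and Slc39a12 (f = 0.977) past its upper limit, 2 of 32 against 4.58% of all genes.

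The intervals also bounded the differences in array values, each gene taken alone and without a joint level over the 32. On this scale the 13 measured genes of the duplicated region had a median log2 difference of 0.38, where a 1.5-fold difference is 0.585. The 95% intervals of all 32 members stayed inside a 1.5-fold difference in either direction, the widest reach being 1.26 times the control level for Aldh1l1 and 0.787 times it for Mt1. For 31 members the interval covered 0. The point estimates were within 0.1 of 0 on the log2 scale for 26 members, and the largest in size was 0.15, for Slc39a12. Averaged over the 32 genes, the mean log2 value was 10.19, 10.10, 10.20, 10.12 and 10.20 in Dp3Yah mice 1 to 5, and 10.16, 10.17, 10.04, 10.14 and 10.14 in control mice 1 to 5. The group means were 10.16 ± 0.0502 in Dp3Yah and 10.13 ± 0.0512 in control (SD, n = 5 each), and the groups overlapped.

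**Figure D1:**
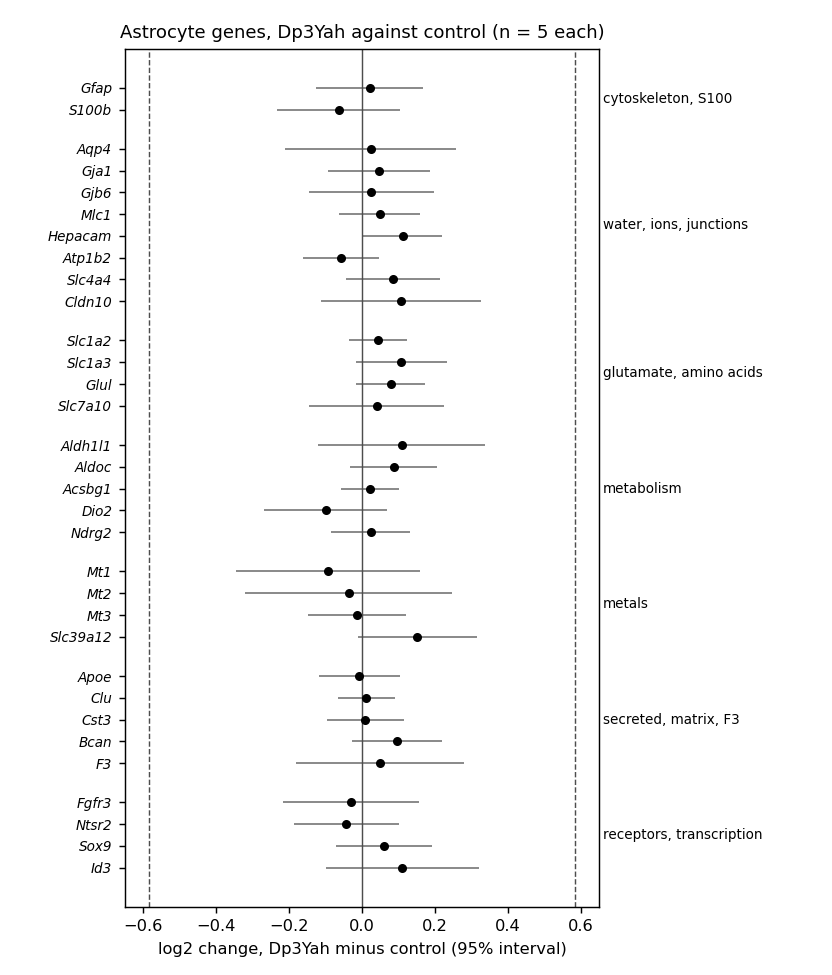
Log2 difference (Dp3Yah minus control) of each astrocyte gene, grouped by role, with its 95% interval from limma (n = 5 mice per group). The 32 intervals all lie inside the lines at a 1.5-fold difference, and only that of Hepacam leaves 0 out.

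Of the structural and calcium-binding markers, neither Gfap nor S100b passed the test. Gfap, the intermediate filament gene, had log2 values, in mice 1 to 5 of each group, of 9.26, 9.35, 9.02, 9.12 and 9.34 in Dp3Yah mice and 9.34, 9.15, 9.12, 9.19 and 9.17 in control mice. Its difference was 0.02 (SE 0.068, 95% interval -0.13 to 0.17, limma adjusted p = 0.985). The Dp3Yah mice spanned both the lowest and the highest of the 10 values. S100b had values of 8.95, 8.84, 9.25, 8.93 and 9.14 in Dp3Yah mice and 9.10, 9.12, 8.91, 9.20 and 9.10 in control mice. Its difference was -0.06 (SE 0.078, 95% interval -0.23 to 0.11, limma adjusted p = 0.957), with the highest and the lowest mouse again both in Dp3Yah. The S100b difference was -0.02 without Dp3Yah mouse 2 and -0.12 without Dp3Yah mouse 3.

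Among the 8 members for water, ions and junctions, 7 had a positive difference, and their median was 0.05. Aqp4, the water channel of the endfeet, had values of 8.56, 8.62, 8.17, 8.39 and 8.64 in Dp3Yah mice and 8.61, 8.09, 8.43, 8.58 and 8.55 in control mice. The difference was 0.02 (95% interval -0.21 to 0.26), and 1 mouse of each group lay well under the others. Hepacam encodes the adhesion protein GlialCAM, which holds the membrane protein MLC1 at astrocyte junctions. Its values were 9.81, 9.77, 9.78, 9.76 and 9.93 in Dp3Yah mice and 9.76, 9.78, 9.61, 9.62 and 9.72 in control mice. The lowest Dp3Yah mouse thus stood near the 2 highest controls, and the groups overlapped. The difference was 0.11 (SE 0.050, 95% interval 0.004 to 0.22, limma adjusted p = 0.922). Hepacam kept an unadjusted p under 0.05 in 4 of the 10 fits that left out 1 mouse.

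Mlc1 differed by 0.05 (limma adjusted p = 0.951). Slc4a4, a sodium bicarbonate cotransporter, had values of 9.76 to 9.95 in Dp3Yah and 9.56 to 9.85 in control, and differed by 0.09. In both genes 3 Dp3Yah mice lay above every control. The gap junction genes Gja1 (connexin 43) and Gjb6 (connexin 30) differed by 0.05 and 0.03, with Gja1 at 10.52 to 10.73 in Dp3Yah and 10.39 to 10.72 in control. Cldn10, a claudin of paracellular ion pores, differed by 0.11 (95% interval -0.11 to 0.33), and its highest value in each group, 10.40 in Dp3Yah and 10.33 in control, stood apart from the rest of that group. The Cldn10 difference was 0.03 without Dp3Yah mouse 3 and 0.19 without control mouse 2, and a second probe set gave 0.10. Atp1b2, a beta subunit of the sodium pump, was the only member of this group with a negative difference, -0.06.

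The 4 genes of glutamate and amino acid handling all had positive differences (4 of 4, median 0.06), none past the test. Slc1a3, which encodes the glutamate transporter GLAST, had values of 10.76, 10.79, 10.97, 10.80 and 10.87 in Dp3Yah mice and 10.79, 10.86, 10.59, 10.75 and 10.67 in control mice, a difference of 0.11 (SE 0.058, limma adjusted p = 0.922). Glul, glutamine synthetase, had values of 12.12, 12.23, 12.14, 12.12 and 12.11 in Dp3Yah mice and 12.18, 12.04, 12.05, 11.98 and 12.07 in control mice. Here 4 control mice lay below every Dp3Yah mouse and control mouse 1 did not, and the difference was 0.08 (SE 0.044, limma adjusted p = 0.922). The second Glul probe set gave a difference of 0.02. Slc1a2, the transporter GLT-1 that clears most synaptic glutamate, was among the steadiest members, at 12.33 to 12.39 in Dp3Yah and 12.24 to 12.36 in control, with a difference of 0.04 (95% interval -0.04 to 0.12). Slc7a10, an exchanger of small neutral amino acids such as D-serine, differed by 0.04.

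Of the 5 metabolic members 4 had a positive difference (median 0.02). Aldh1l1, a folate enzyme used as a pan-astrocyte marker, had values of 7.66, 7.62, 7.92, 7.60 and 7.72 in Dp3Yah mice and 7.54, 8.003, 7.32, 7.54 and 7.58 in control mice. Control mouse 2 held the highest value and control mouse 3 the lowest, so that the Dp3Yah values all fell between them. The difference was 0.11 (SE 0.105, limma adjusted p = 0.947), and it was 0.04 without control mouse 3 and 0.21 without control mouse 2. Aldoc, the brain aldolase, differed by 0.09, and Acsbg1, an acyl-CoA synthetase, and Ndrg2, a protein abundant in astrocytes, by 0.02 each. Dio2, the deiodinase with which astrocytes make active thyroid hormone, differed by -0.10, with values of 7.54 to 7.89 in Dp3Yah and 7.65 to 7.98 in control.

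The metal-handling members gave both the largest positive difference and the widest spread between mice. Slc39a12, a zinc importer, had values of 7.96, 8.17, 7.82, 7.82 and 8.09 in Dp3Yah mice and 7.89, 7.67, 7.75, 7.84 and 7.93 in control mice. In 3 Dp3Yah mice it was above every control, and in the other 2 it lay among them. The difference was 0.15 (SE 0.075, 95% interval -0.01 to 0.31, limma adjusted p = 0.922). Those 3 mice, 1, 2 and 5, had means of 12 choroid plexus markers of 6.97, 7.37 and 7.53, against 6.07 and 6.05 in the other 2. In control mice 1 and 5, the highest controls for Slc39a12, that mean was 7.49 and 7.63, against 6.04 to 6.16 in the other controls. With that mean as a covariate, a fit added after seeing the data, the Slc39a12 difference was 0.14, against 0.15 without it. The part of choroid plexus content in the spread of Slc39a12 between mice was not tested. The metallothioneins Mt1 and Mt2 encode small cysteine-rich proteins that bind zinc and copper. Mt1 had values of 12.21, 11.71, 12.33, 11.88 and 11.94 in Dp3Yah mice and 12.00, 12.43, 11.96, 12.06 and 12.07 in control mice. Mt2 had values of 12.73, 12.18, 12.93, 12.38 and 12.59 in Dp3Yah mice and 12.59, 12.95, 12.47, 12.47 and 12.51 in control mice. In both genes the mouse-to-mouse range was far wider than the group difference, which was -0.09 for Mt1 (SE 0.116) and -0.04 for Mt2 (SE 0.131). Without Dp3Yah mouse 2, the lowest in both, Mt2 differed by 0.06 and Mt1 by -0.02. Mt1 differed by -0.17 without Dp3Yah mouse 3 and by -0.01 without control mouse 2. Mt3, the metallothionein of the brain, differed by -0.01.

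Mt1, Mt2 and Mt3 lie side by side on chromosome 8 of GRCm38.p6, Mt1 at chr8:94178883-94180327, Mt2 at chr8:94172618-94173567 and Mt3 at chr8:94152607-94154148, all on the forward strand. Metallothionein genes are switched on by the zinc-sensing factor MTF-1 through metal response elements. Because Mt1 and Mt2 varied together between mice, the 250 bases before each RefSeq start site were searched, on both strands, for the core of this element, TGCGCNC or TGCACNC. Matches are in capitals, and positions count back from the start site. The first line shows the 30 bases around the single match of Mt1, at chr8:94179055-94179084, and the second the whole Mt2 window, at chr8:94172368-94172617.
Mt1: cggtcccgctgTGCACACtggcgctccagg
Mt2: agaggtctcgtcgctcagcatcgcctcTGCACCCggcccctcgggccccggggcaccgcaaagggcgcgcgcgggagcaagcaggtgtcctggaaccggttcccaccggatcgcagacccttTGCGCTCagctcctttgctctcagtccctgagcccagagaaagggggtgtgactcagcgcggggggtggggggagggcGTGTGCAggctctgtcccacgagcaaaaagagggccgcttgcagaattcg
The Mt1 match is at -23 to -17. The start site used for Mt1, 94179089, is not the start of its gene record. It lies inside that record, which starts at 94178883, and no base after it was searched. The single match is therefore not a count of the elements of Mt1, and it was not compared with the 3 of Mt2. The 3 matches of Mt2 are at -223 to -217, at -128 to -122 and, on the opposite strand, at -50 to -44. Mt3 had 0 matches in its window. Of 32851 promoter windows of the same length, 21.4% held at least 1 match and 1.26% at least 3. A match describes these letters only.

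The 5 secreted, lipid and matrix members lay close to 0 (4 of 5 positive, median 0.01). Apoe, the lipoprotein of the brain, differed by -0.01 (95% interval -0.12 to 0.10), with values of 12.20 to 12.44 in Dp3Yah and 12.26 to 12.41 in control. Clu, another apolipoprotein and a chaperone, was the steadiest member, with a within-group SD of 0.031 and a difference of 0.01. Cst3, the protease inhibitor cystatin C, differed by 0.01, and F3, tissue factor, by 0.05. Bcan, which encodes the matrix proteoglycan brevican, differed by 0.10 (limma adjusted p = 0.922), with 9.72 to 9.89 in Dp3Yah and 9.56 to 9.84 in control.

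Of the 4 receptor and transcription factor members, 2 had positive differences. Sox9, a glial transcription factor, differed by 0.06, with 9.04 to 9.25 in Dp3Yah and 8.92 to 9.22 in control. Id3, an inhibitor of helix-loop-helix factors, differed by 0.11, but 2 Dp3Yah mice (7.21 and 7.39) were above every control and 1 (6.76) was below every control. The Id3 difference was 0.03 without Dp3Yah mouse 5 and 0.18 without Dp3Yah mouse 2. The growth factor receptor gene Fgfr3 differed by -0.03 and the neurotensin receptor gene Ntsr2 by -0.04.

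**Figure D2:**
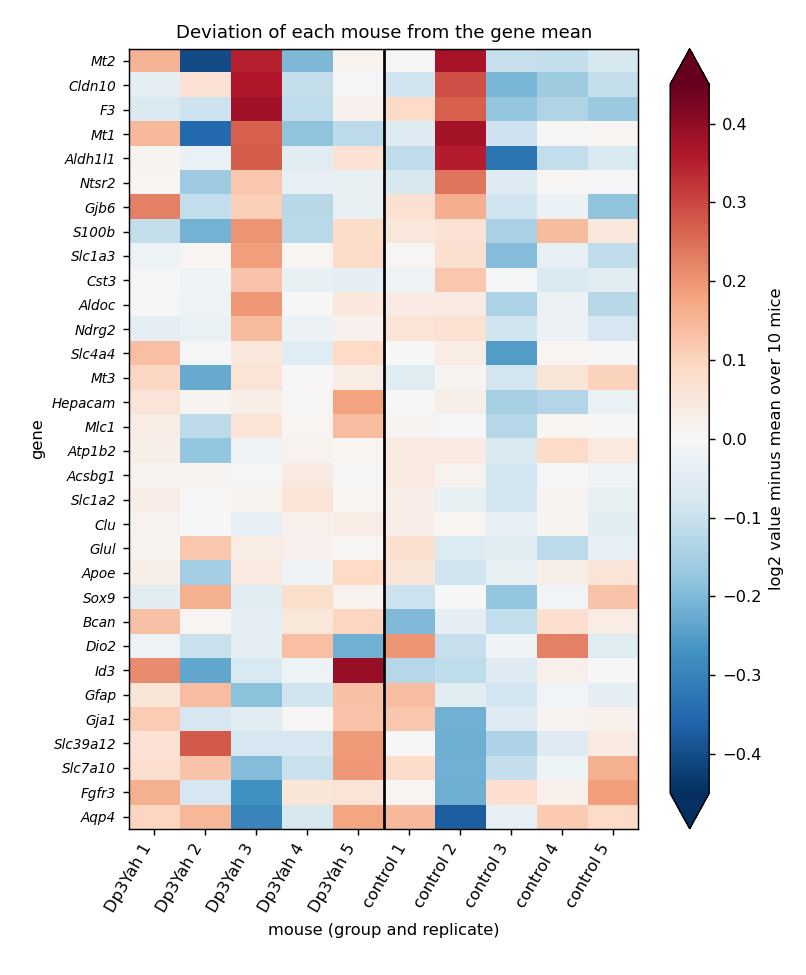
Heat map of the log2 value of each astrocyte gene minus its own mean over the 10 mice, Dp3Yah mice at the left and control mice at the right, with rows ordered by their summed deviation in Dp3Yah mouse 3 and control mouse 2. The ends of the row order show the genes in which these mice deviated most in either direction, and no row splits the groups.

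The spread between mice differed widely among members. The within-group SD ran between 0.031 (Clu) and 0.252 (Mt2), with a median of 0.108 against 0.0976 in the genes above the median level. Of the 32, 7 were among the 10% of those genes with the widest spread (Aqp4, Cldn10, Aldh1l1, Mt1, Mt2, F3 and Id3) and 3 among the 10% with the narrowest (Slc1a2, Acsbg1 and Clu). The extreme mice were not the same for all genes. Control mouse 3 was lowest in 12 of 32 members (10.4% of all genes). Dp3Yah mouse 2 was lowest in 8 of 32, a share near that over all genes (23.8%). Dp3Yah mouse 5 was highest in 8 members (11.1% of all genes).

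A pair of mice, 1 of each genotype, shared a pattern that was noticed only after the values were seen and was not tested. Dp3Yah mouse 3 and control mouse 2 were together the 2 highest mice in 8 of 32 members (25%, against 6.84% of the genes above the median level): Aldh1l1, Cldn10, Cst3, F3, Mt1, Mt2, Ndrg2 and Ntsr2. They were the 2 lowest in 3 members (9.38%, against 3.97%), Aqp4, Fgfr3 and Slc7a10. In 45 further astrocyte genes the pair was highest in 11, among them Etnppl, Gldc and Gstm1, and lowest in 8, among them Kcnj10, Kcnj16 and Grin2c. The pair held 1 mouse of each genotype, and without both mice 0 of 32 members passed the limma test.

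Other cell type markers varied between the same mice. The mean of 12 choroid plexus markers was 6.97, 7.37, 6.07, 6.05 and 7.53 in Dp3Yah mice and 7.49, 6.04, 6.11, 6.16 and 7.63 in control mice. Its low end held both mice of the pair, but also Dp3Yah mouse 4 and control mice 3 and 4. Ttr, the transthyretin of the choroid plexus, had a within-group SD of 1.96. The mean of 9 oligodendrocyte markers was 9.73 to 10.30 in Dp3Yah and 9.83 to 10.16 in control, that of 10 microglia markers 7.90 to 8.11 in Dp3Yah and 7.83 to 7.95 in control, and that of 9 neuron markers 11.61 to 11.72 in Dp3Yah and 11.64 to 11.69 in control. The pair was lowest in the mean of 9 dentate granule cell markers, with Dp3Yah mouse 3 at 7.78, control mouse 2 at 7.94 and Dp3Yah mouse 2 next at 7.953. It was also lowest in that of 6 oligodendrocyte precursor markers, at 7.44 and 7.46, with control mouse 3 next at 7.47. In the oligodendrocyte, microglia and neuron means the pair did not take the low or the high end together. Of these cell types only the choroid plexus was taken into a fit, and the part of the others in the astrocyte values was not tested. With the choroid plexus mean as a covariate 0 of 32 members passed. As 0 passed without it too, this count cannot show whether choroid plexus content bears on the astrocyte values. With the covariate Hepacam and Slc39a12 had an unadjusted limma p under 0.05, and without it Hepacam alone.

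**Figure D3:**
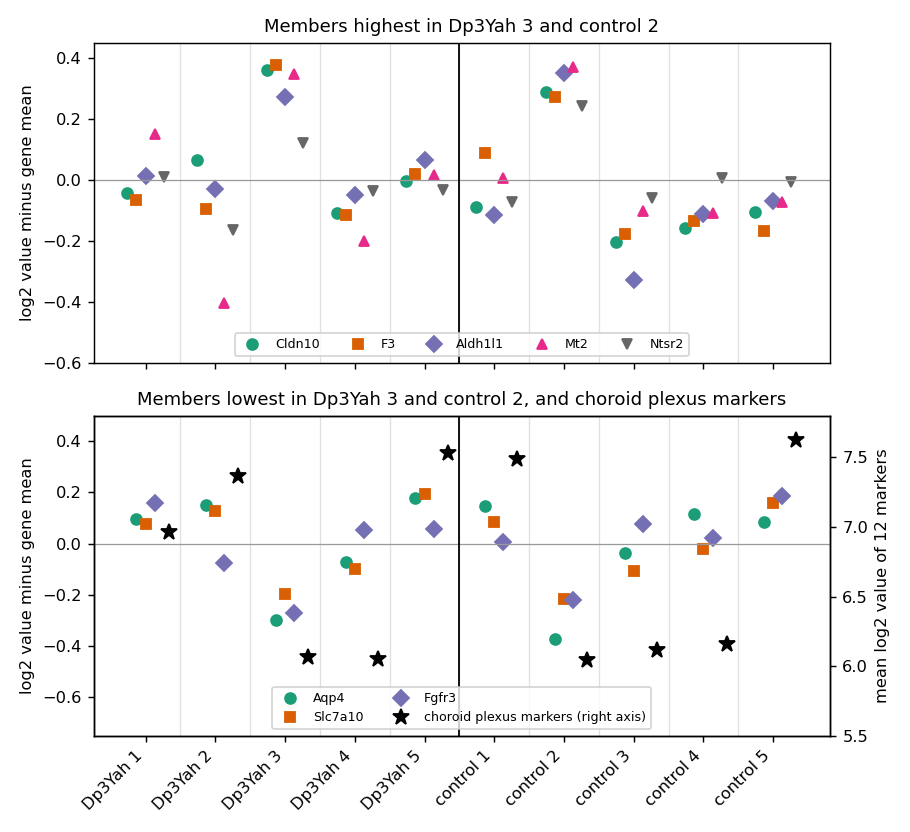
Log2 value minus the gene mean per mouse, Dp3Yah mice left of the line and control mice right of it, for 5 members highest in Dp3Yah mouse 3 and control mouse 2 (above) and 3 members lowest in them (below, with the mean log2 of 12 choroid plexus markers on the right axis). Choroid plexus marker means are low in 5 of the 10 mice, the pair included.

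**Figure D4:**
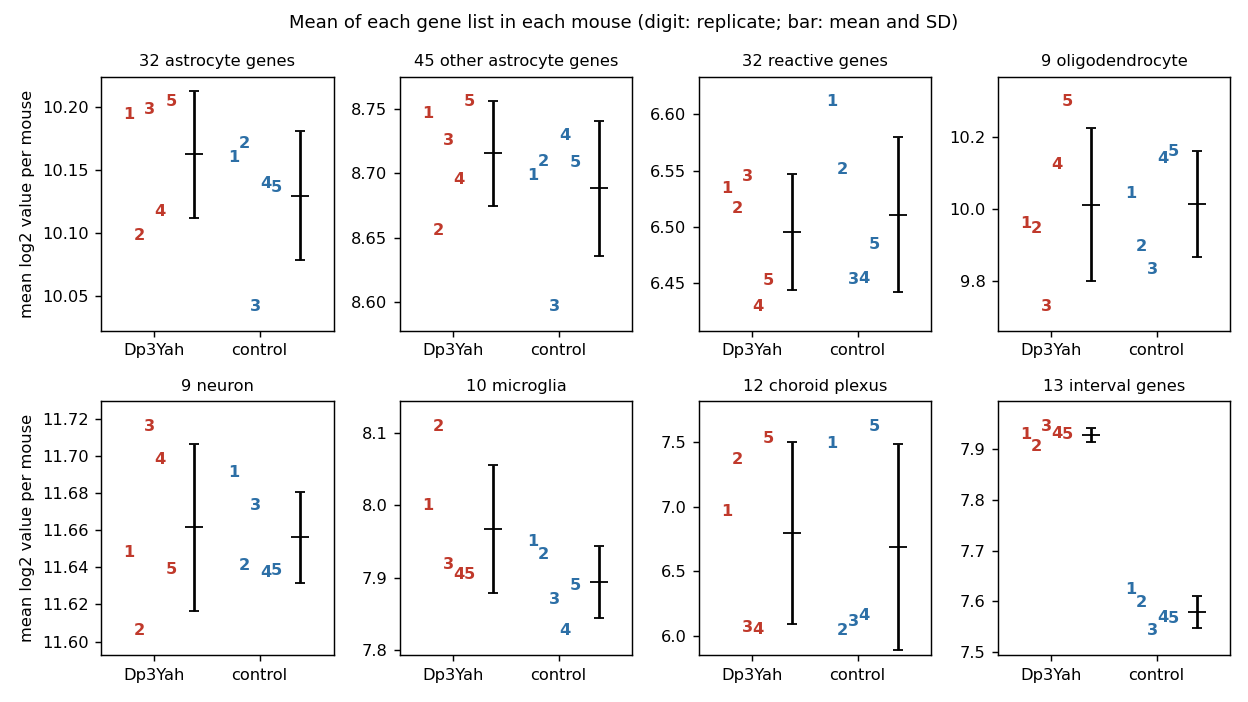
Mean log2 value of 8 gene lists per mouse, Dp3Yah left and control right in each panel, digits giving the replicate and bars the mean and SD (n = 5 each). The groups overlap in every panel but that of the 13 interval genes, and the scales differ between panels.

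For 8 pairs of members with a known partnership, values were correlated over the 10 mice, with permutation tests (100000 resamples, two-sided) and Benjamini-Hochberg adjustment over the 8 pairs. The pairs were chosen with earlier results of these data known, so the p-values are no independent test. Mt1 and Mt2 followed each other closely (Pearson r = 0.951, permutation p = 0.00014, adjusted p = 0.00112, Spearman rho = 0.818, permutation p = 0.00584, adjusted p = 0.0234). With group means removed r was 0.961, and without the 2 mice farthest from the median of Mt1 it was 0.883 (permutation test, adjusted p = 0.041). Gfap and Aqp4 were also correlated (r = 0.763, permutation p = 0.00801, adjusted p = 0.032, rho = 0.879, permutation p = 0.00151, adjusted p = 0.0121). With group means removed r was 0.762 (permutation test, adjusted p = 0.039). Without the 2 farthest mice it was 0.72, with 8 mice left and a permutation p of 0.0424, adjusted to 0.170. Both genes were higher in Dp3Yah mice 1, 2 and 5 than in 3 and 4, as was the mean of the choroid plexus markers. Among the controls both were highest in mouse 1, where that mean was 7.49. Both were higher in control mouse 4 than in 5, where it was 6.16 and 7.63. Its part in this correlation was not tested.

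The other 6 pairs did not pass, with permutation p-values adjusted to between 0.0786 and 0.966 for r and between 0.144 and 0.947 for rho. Mlc1 and Hepacam, whose products bind each other, gave r = 0.689 (permutation p adjusted to 0.0786) and rho = 0.636, which became r = 0.0428 without the 2 mice farthest from the median. The transporters Slc1a2 and Slc1a3 gave r = 0.53 and rho = 0.285 (permutation p adjusted to 0.228 and 0.567), and Slc1a2 and Glul r = 0.391 and rho = 0.479. The connexin genes Gja1 and Gjb6 gave r = -0.0158 and rho = 0.0303, and Apoe and Clu r = 0.0778 and rho = 0.285. Gfap and S100b, both routine astrocyte markers, gave r = -0.277 and rho = -0.212 (permutation p = 0.430 and 0.561). Without the 2 farthest mice of each pair, r was 0.198 for Slc1a2 and Slc1a3, 0.349 for Slc1a2 and Glul, 0.533 for Gja1 and Gjb6, 0.25 for Apoe and Clu and -0.112 for Gfap and S100b.

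**Figure D5:**
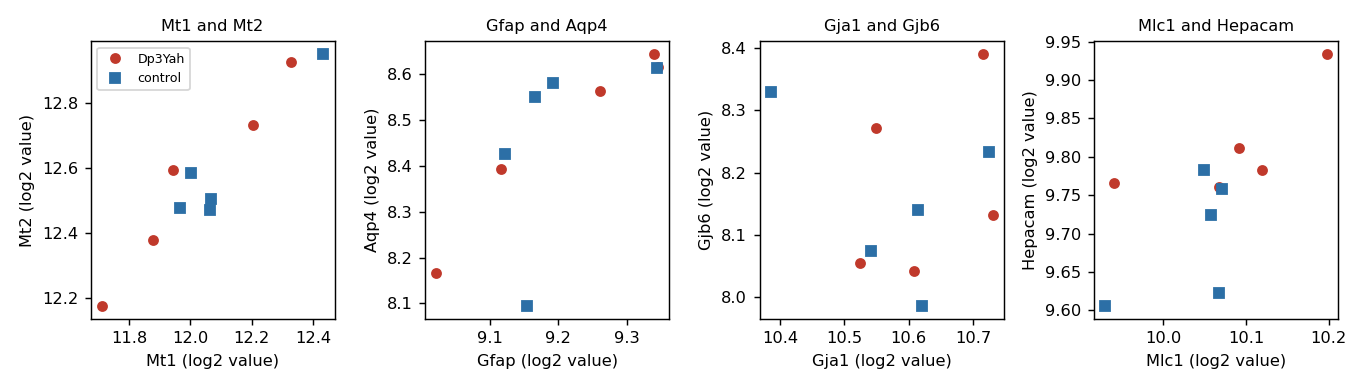
Log2 values of the members of 4 of the 8 pairs against each other, 1 point per mouse, with Dp3Yah and control mice in different colours. Mt1 and Mt2 (r = 0.951 over 10 mice) form a line in the Dp3Yah mice, while 4 control mice lie together and control mouse 2 lies above them.

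Of the genes that work beside the members, 0 passed the limma test in each list that follows. Over all genes 5.08% had an unadjusted limma p under 0.05 and 46.8% a positive difference (53.1% of the genes above the median level). Of 45 further astrocyte genes 32 had a positive difference (median 0.03). In this list 2 (4.44%) had an unadjusted limma p under 0.05, Cyp2d22 (0.14) and Slc27a1 (0.13). Of 32 genes of reactive astrocytes 17 were positive (median 0.01). Only Hspb1, a small heat shock protein, had an unadjusted limma p under 0.05 (1 of 32, 3.13%). It differed by -0.48 (limma adjusted p = 0.922), whereas Vim and Serpina3n differed by 0.03 and 0.02. The S100 family had 8 positive of 16 genes and none at an unadjusted p under 0.05. In the glutamate cycle 1 of 18 genes (5.56%) had one, Pcx (0.13), the pyruvate carboxylase that astrocytes use to make new glutamate.

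Of 14 connexin and pannexin genes 5 were positive. Gjb5 (-0.16) and Panx2 (-0.23) had an unadjusted limma p under 0.05 (14.3%, against 5.08% of all genes). Of 19 genes of metal homeostasis 13 were positive, and 3 had one (15.8%). These were Tfrc (0.30), the transferrin receptor, Mt4 (-0.10) and Mtf1 (-0.20), which encodes MTF-1. In lipoprotein and cholesterol metabolism 1 of 18 (5.56%) had one, Lrp1 (0.11), a receptor for APOE. In the lists for endfoot ion transport (17 genes), gliogenesis (26), thyroid hormone (8) and glucocorticoid response (14) no gene had one.

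Of the markers of other cells, 0 passed the limma test, while those of dentate granule cells lay mostly lower in Dp3Yah. Of 9 dentate granule cell markers 7 were negative, with a median of -0.22, and 4 (44.4%, against 5.08% of all genes) had an unadjusted limma p under 0.05, all of them negative. The 3 with the smallest p were C1ql2 (-0.24, limma adjusted p = 0.707), Stxbp6 (-0.22) and Plk5 (-0.24), and in C1ql2 every Dp3Yah mouse lay below every control, as in 0.391% of all genes. The rank test put 6 of the 9 past its limits, 5 lower and 1 higher, against 4.58% of all genes. Their mean log2 value was 8.07, 7.95, 7.78, 8.05 and 7.97 in Dp3Yah mice and 8.20, 7.94, 8.11, 8.14 and 8.19 in control mice, so that the groups overlapped through control mouse 2. Of 10 microglia markers 9 were positive (median 0.08), and Cx3cr1 (0.15) and Siglech (0.13) had an unadjusted limma p under 0.05 (20%, against 5.08% of all genes). The lists were chosen with earlier results of these data known, so such shares describe them and are no independent test. The list of 8 pyramidal cell markers had a median of 0.09 and that of 12 choroid plexus markers 0.07, with none at an unadjusted p under 0.05. Nor had any of the 9 oligodendrocyte, 6 oligodendrocyte precursor, 7 endothelial, 9 neuron, 6 ependymal and 6 neurogenic markers, nor the single erythrocyte marker measured. Tagln (-0.16) of 7 mural and Dcn (0.35) of 7 fibroblast markers had one (14.3% of each list). In 1 of the 7 mural markers every Dp3Yah mouse lay below every control. Apart from the fit with the choroid plexus mean as a covariate, whether these cell types bear on the astrocyte values was not tested.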

How the data were processed

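Hippocampal RNA was measured on Affymetrix Mouse Gene ST arrays, 1 per mouse (5 Dp3Yah, 5 control). The authors deposited log2 values, 1 per probe set, for which the submitters' processing notes name RMA, limma and the mm10 build; their versions were not given in the sources used. RMA brings all arrays to a common distribution, so a shift shared by most genes would not show, and array levels compress small differences. Of 35556 probe sets 21789 carried 1 gene symbol, 1621 several and 12146 none; those with 1 gave 19938 genes (999 with several probe sets). Symbols were updated to RefSeq (GRCm38.p6) for 19856 of them.

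Differences between Dp3Yah and control were fitted with limma 3.58.1 under R 4.3.3 (lmFit, eBayes, no covariate, two-sided, Benjamini-Hochberg over all genes, threshold 0.05). No block was used. Permutation tests and counts were made in Python 3.11.15. The rank test of the study (FCROS) was rewritten from its principle as an alternative, with a trim of 0.25 and limits of 0.025 and 0.975 on f. The model was tested on simulated data. Alternatives were a replicate block, other probe set summaries, a level filter, other normalisations, variance settings, array weights and leaving out each mouse. Leaving out Dp3Yah mouse 3 with control mouse 2, and the choroid plexus covariate, were added after seeing the data.

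Members, gene lists and pairs were chosen with earlier results of these data known. Every member was named, up to 3 genes per list with an unadjusted p under 0.05, and the called genes of the duplicated region. Vim and Serpina3n were named as well known reactive genes, and Ttr as the defining choroid plexus marker. The examples among further astrocyte genes were chosen after their values were seen. Replicates are separate mice, and the number of arrays limits precision.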

Additional observations from a re-analysis of the deposited data

Results flagged for a closer look

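In 12 of 66 groups of 5 mice (18.2%) 1 mouse lay apart from the other 4 by Dixon's test, where chance alone marks about 1 in 20. The groups share mice and the genes vary together, so the marks are not independent. Dp3Yah mouse 2 was lowest for Atp1b2 (11.09, next 11.24) and Mt3 (11.34, next 11.57) and highest for Glul (12.23, next 12.14). Dp3Yah mouse 3 was highest for Cst3 (13.58, next 13.44) and F3 (9.71, next 9.35). Control mouse 2 was highest for Cldn10 (10.33, next 9.95), Mt1 (12.43, next 12.07), Mt2 (12.95, next 12.58) and Ntsr2 (10.09, next 9.85). Control mouse 3 was lowest for Mlc1 (9.93, next 10.05), Slc4a4 (9.56, next 9.81) and the mean of the 32 astrocyte genes (10.04, next 10.14).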

How the results depend on the processing

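In all 20 alternative fits 0 of 32 astrocyte genes passed the limma test, the lowest adjusted p being 0.711. Between 20 and 26 members had a positive difference, and the median difference was 0.01 to 0.06. The rank test put 2 members past its limits.

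The count of members with an unadjusted limma p under 0.05 was 1 in the fit reported, 0 among the genes above the median level alone, 3 without Dp3Yah mouse 3 and control mouse 2 together, 2 with the choroid plexus covariate and 0 to 4 when 1 mouse was left out. It was 0 without Dp3Yah mouse 1, Dp3Yah mouse 5 or control mouse 3, 2 without Dp3Yah mouse 4 or control mouse 1, and 4 without control mouse 2. With the replicate block, 0 members passed, 1 had an unadjusted p under 0.05 and 3 genes were called over all. The replicate numbers were not treated as pairs in the fit reported. Correlations of deviations within a number were 0.04, -0.36, 0.07, 0.20 and 0.32, and a mouse matched its own number best in 4 of 10 cases. Whether the numbers pair the samples was not tested.

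The sign of 13 members turned under at least 1 alternative. With 1 mouse left out, the differences ran from -0.0109 to 0.0701 for Gfap, -0.0659 to 0.101 for Aqp4, -0.00033 to 0.0842 for Gja1, -0.0274 to 0.0700 for Gjb6, -0.00791 to 0.0952 for Slc7a10, -0.00861 to 0.0437 for Ndrg2, -0.128 to 0.0601 for Mt2, -0.0388 to 0.0416 for Mt3, -0.0301 to 0.0306 for Apoe, -0.0214 to 0.0406 for Cst3, -0.0395 to 0.123 for F3, -0.0886 to 0.0341 for Fgfr3 and -0.0779 to 0.0126 for Ntsr2. For the other 19 members, whose sign never turned, they ran from -0.121 to -0.0184 for S100b, 0.0198 to 0.0840 for Mlc1, 0.0813 to 0.133 for Hepacam, -0.0811 to -0.0210 for Atp1b2, 0.0327 to 0.110 for Slc4a4, 0.0310 to 0.194 for Cldn10, 0.0288 to 0.0572 for Slc1a2, 0.0732 to 0.140 for Slc1a3, 0.0580 to 0.107 for Glul, 0.0403 to 0.210 for Aldh1l1, 0.0489 to 0.108 for Aldoc, 0.00235 to 0.0340 for Acsbg1, -0.146 to -0.0551 for Dio2, -0.172 to -0.0108 for Mt1, 0.103 to 0.191 for Slc39a12, 0.00200 to 0.0229 for Clu, 0.0592 to 0.127 for Bcan, 0.0244 to 0.10 for Sox9 and 0.0268 to 0.184 for Id3. Array weights gave 0.00998 for Mt2, 0.0102 for Mt3 and 0.00532 for Apoe, and median centring 0.00427 for Apoe. Apoe differed by -0.0406 without Dp3Yah mouse 3 and control mouse 2 together. Without the 2 mice farthest from the median, r was 0.533 for Gja1 and Gjb6 and 0.72 for Gfap and Aqp4 (permutation p adjusted to 0.170). The cause of these shifts was not tested.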
